A study of Homo sapiens with 60 samples.

Results

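DNA replication and nucleotide synthesis genes were followed in SW1783 cells, a human astrocytoma line, across every treatment of the series. The set held 43 genes chosen by name for their role at replication origins, at the fork or in the supply of nucleotides. The rule used no measured value, but earlier results of these data were known when the genes were chosen. All 43 matched 1 Ensembl identifier each among the 60675 in the table, and all 43 were among the 17792 genes that passed the filter on low counts. RNA was taken 24 h after treatment, and each of 20 groups had 3 libraries. The treated groups were wortmannin at 10 µM, an inhibitor of phosphoinositide 3-kinases used as positive control, and water extracts of 6 herbs at 3 doses each. Liriopis seu Ophiopogonis Tuber, Schisandrae Fructus, Longan Arillus, Zizyphi Semen and Aucklandiae Radix were given at 20, 100 and 500 µg/mL, and Polygalae Radix at 10, 50 and 250 µg/mL; the lowest of these is called the low dose, the next the medium and the highest the high dose. By the series description, an extract that reached its IC20, a mild toxicity limit, below the usual top dose was given at that limit, so the Polygalae doses are lower. The vehicle group received DMSO, at 0.1% per the sample labels and at 2% per the series description, and no DMSO content is given for the treated groups. The labels do not say whether libraries of 1 group stem from different cultures; the p-values therefore cover no more than the variation among the libraries sequenced, which may be technical. By the first part of the library names, the vehicle libraries are a set of their own, and so are the wortmannin libraries. A difference between sets and an effect of a treatment therefore cannot be told apart in comparisons with vehicle. For wortmannin there is no comparison within a set. The 3 doses of a herb share a set.

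Replication begins when the origin recognition complex, with CDC6 and CDT1, loads the ring-shaped MCM helicase onto DNA. CDC45 and the GINS complex then switch the helicase on, polymerase alpha with primase starts each strand, the polymerases delta and epsilon extend it on the PCNA clamp, and ribonucleotide reductase and thymidylate synthase supply the building blocks. In dividing cells many of these genes are switched on together before S phase, largely by E2F transcription factors bound near their start sites.

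Promoter sequences are shown for genes that the results below turn on: MCM3 and MCM6, subunits of the helicase ring, POLA1, the catalytic subunit of polymerase alpha, and ORC6, a subunit of the origin recognition complex that fell with wortmannin and rose with the high doses of Schisandrae and Polygalae. Each covers 250 bases before and 50 bases after the annotated start, reads 5′ to 3′ on the strand of the gene and comes from RefSeq on GRCh38.p14. Capitals mark matches, on either strand, to the E2F-type motifs TTTGGCGC, TTTCCCGC, TTTCGCGC and TTTGCCGC.
MCM3, chr6:52284693-52284992, minus strand: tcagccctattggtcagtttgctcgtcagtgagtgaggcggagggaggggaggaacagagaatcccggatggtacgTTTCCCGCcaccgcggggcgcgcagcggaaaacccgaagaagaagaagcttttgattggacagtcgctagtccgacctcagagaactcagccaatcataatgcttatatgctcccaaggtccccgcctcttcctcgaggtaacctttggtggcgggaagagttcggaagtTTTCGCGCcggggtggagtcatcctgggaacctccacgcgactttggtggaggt
MCM6, chr2:135876394-135876693, minus strand: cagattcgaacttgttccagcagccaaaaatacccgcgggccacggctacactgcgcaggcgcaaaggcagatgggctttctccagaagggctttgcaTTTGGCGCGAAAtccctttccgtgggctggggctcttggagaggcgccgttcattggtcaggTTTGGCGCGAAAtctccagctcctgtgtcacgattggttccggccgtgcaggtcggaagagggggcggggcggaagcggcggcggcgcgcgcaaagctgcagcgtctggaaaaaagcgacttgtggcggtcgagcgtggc
POLA1, chrX:24693668-24693967, plus strand: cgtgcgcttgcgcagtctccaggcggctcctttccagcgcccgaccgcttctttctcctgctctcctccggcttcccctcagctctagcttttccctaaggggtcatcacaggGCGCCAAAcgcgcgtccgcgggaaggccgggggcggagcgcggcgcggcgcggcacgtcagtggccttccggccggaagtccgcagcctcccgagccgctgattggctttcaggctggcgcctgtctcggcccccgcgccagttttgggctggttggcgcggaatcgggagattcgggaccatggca
ORC6, chr16:46689409-46689708, plus strand: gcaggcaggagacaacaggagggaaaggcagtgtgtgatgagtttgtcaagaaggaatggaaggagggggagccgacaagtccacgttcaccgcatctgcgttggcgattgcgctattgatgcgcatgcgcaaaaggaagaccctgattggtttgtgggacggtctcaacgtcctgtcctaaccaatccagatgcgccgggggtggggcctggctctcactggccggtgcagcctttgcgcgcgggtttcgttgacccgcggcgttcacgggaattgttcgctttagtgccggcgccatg
On GRCh38 the genes span chromosome 6 from 52264009 to 52284881 for MCM3 (ENSG00000112118), chromosome X from 24693919 to 24996986 for POLA1 (ENSG00000101868) and chromosome 16 from 46689643 to 46698394 for ORC6 (ENSG00000091651). MCM3 held 2 matches, MCM6 held 4 that overlap in pairs on opposite strands, POLA1 held 1 on the opposite strand, and ORC6 held none. The RefSeq table gave a promoter for 37 of the 43 genes. Of these, 18 (48.6%) held at least 1 E2F-type match, against 908 of 27305 promoters (3.33%) in the whole table. MCM2, MCM3, MCM6 and MCM7 were the genes with more than 1. The letters CCAAT occurred in 54.1% of the 37 promoters and in 35.7% of all, and the letters TTTGAA or TTCGAA, a pattern known from late cell cycle promoters, in 5.4% and in 16.62%. These are matches of letters in a fixed window and say nothing of which factor was bound.

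**Figure D1:**
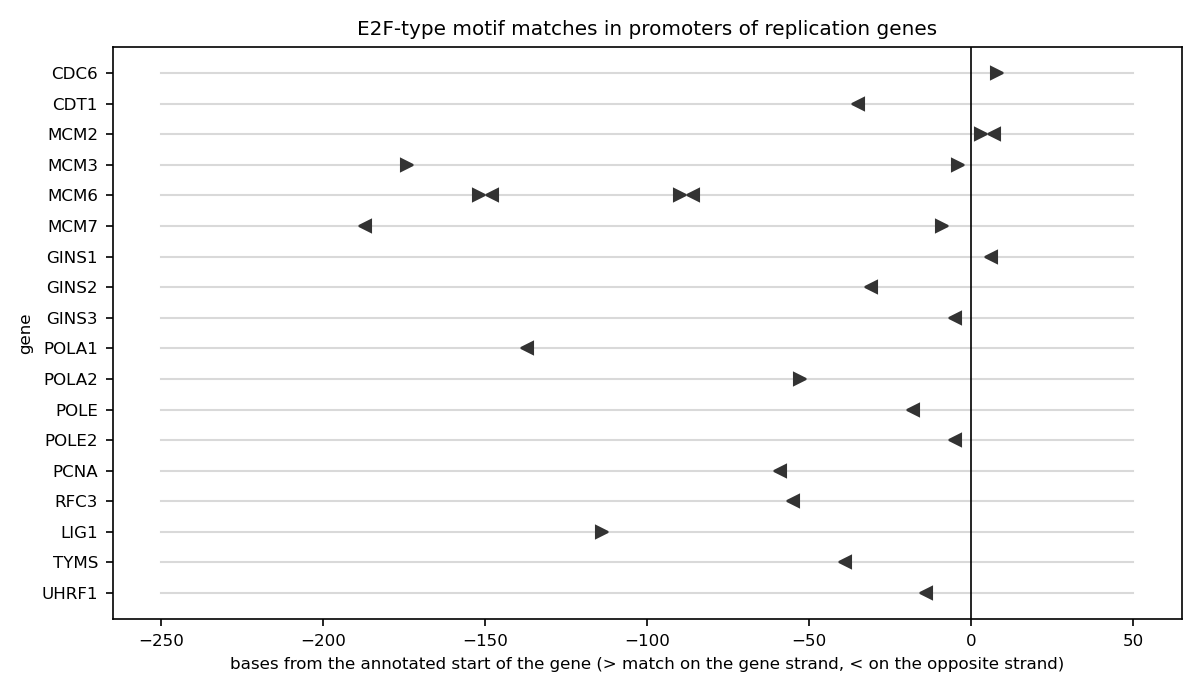
Positions of E2F-type motif matches in the 18 promoters that held any, in bases from the annotated start (x axis), 1 gene per line; right-pointing marks are matches on the strand of the gene and left-pointing marks on the other. Of the 24 matches, 16 began within 60 bases of the start.

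The median depth was 25.71 M expected counts, the shallowest library having 9.34 M and the deepest 35.35 M. Of 8 glial markers, SLC1A3, SOX9, VIM and NES passed the filter, with 31.5, 81.1, 4790 and 7.24 CPM (counts scaled to a common library size) in vehicle cells, whereas GFAP, S100B, AQP4 and ALDH1L1, markers of mature astrocytes, did not. AQP4 was at 0 in vehicle cells. Of the 4 glial markers tested, 3 were lower and 0 higher at the high dose than at the low dose, both with Schisandrae and with Polygalae. Markers of epithelial, immune, endothelial, neuronal and oligodendrocyte cells were measurable for 8 of 10 genes, and their summed level was 69.8 to 74.5 CPM with high-dose Schisandrae, 58.3 to 63.2 with high-dose Polygalae, 186 to 193 with wortmannin and 165 to 177 in vehicle libraries. Of those genes KRT18, an intermediate filament gene, made up most of the sum (46.2, 33.2, 135 and 123 CPM in the same order), and the epithelial genes EPCAM and CDH1 were below 0.1 CPM in these groups. The part of these markers in the results below was not tested. The mitochondrial share of counts was 12.42% to 13.37% with high-dose Polygalae, 7.87% to 10.97% with low-dose Polygalae and 10.32% to 10.57% in vehicle libraries, and its part in the results was not tested either. The submitters state that outlying samples with too little RNA had been left out. Liriopis high-dose replicate 1 stood apart: its mean correlation with the other 2 libraries of its group was 0.945, against 0.984 or more within every other group.

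In vehicle cells the genes lay between the percentiles 48 and 94.9 of all tested genes by CPM. Per kilobase of exon, PCNA, the sliding clamp, was highest with 77.4 CPM, followed by MCM7 with 43.3, RRM1 with 38.7, MCM3 with 35.2 and RRM2 with 32.8. GINS3, a subunit of the GINS complex, was lowest with 2.45. Across the 20 groups the ratio of a gene's highest to its lowest group mean was 1.59 at the median and ran from 1.22 to 2.79. The lowest group mean of a gene fell in high-dose Schisandrae for 17 genes, high-dose Polygalae for 13, wortmannin for 12 and medium-dose Polygalae for 1. The highest lay in high-dose Polygalae for 14 genes and in high-dose Liriopis for 10, the remaining genes being spread over other groups. The high-dose Liriopis mean includes the replicate that stood apart, and the ratios were not computed without it. In bulk RNA, fewer cells in S phase and less RNA per such cell cannot be told apart.

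**Figure D2:**
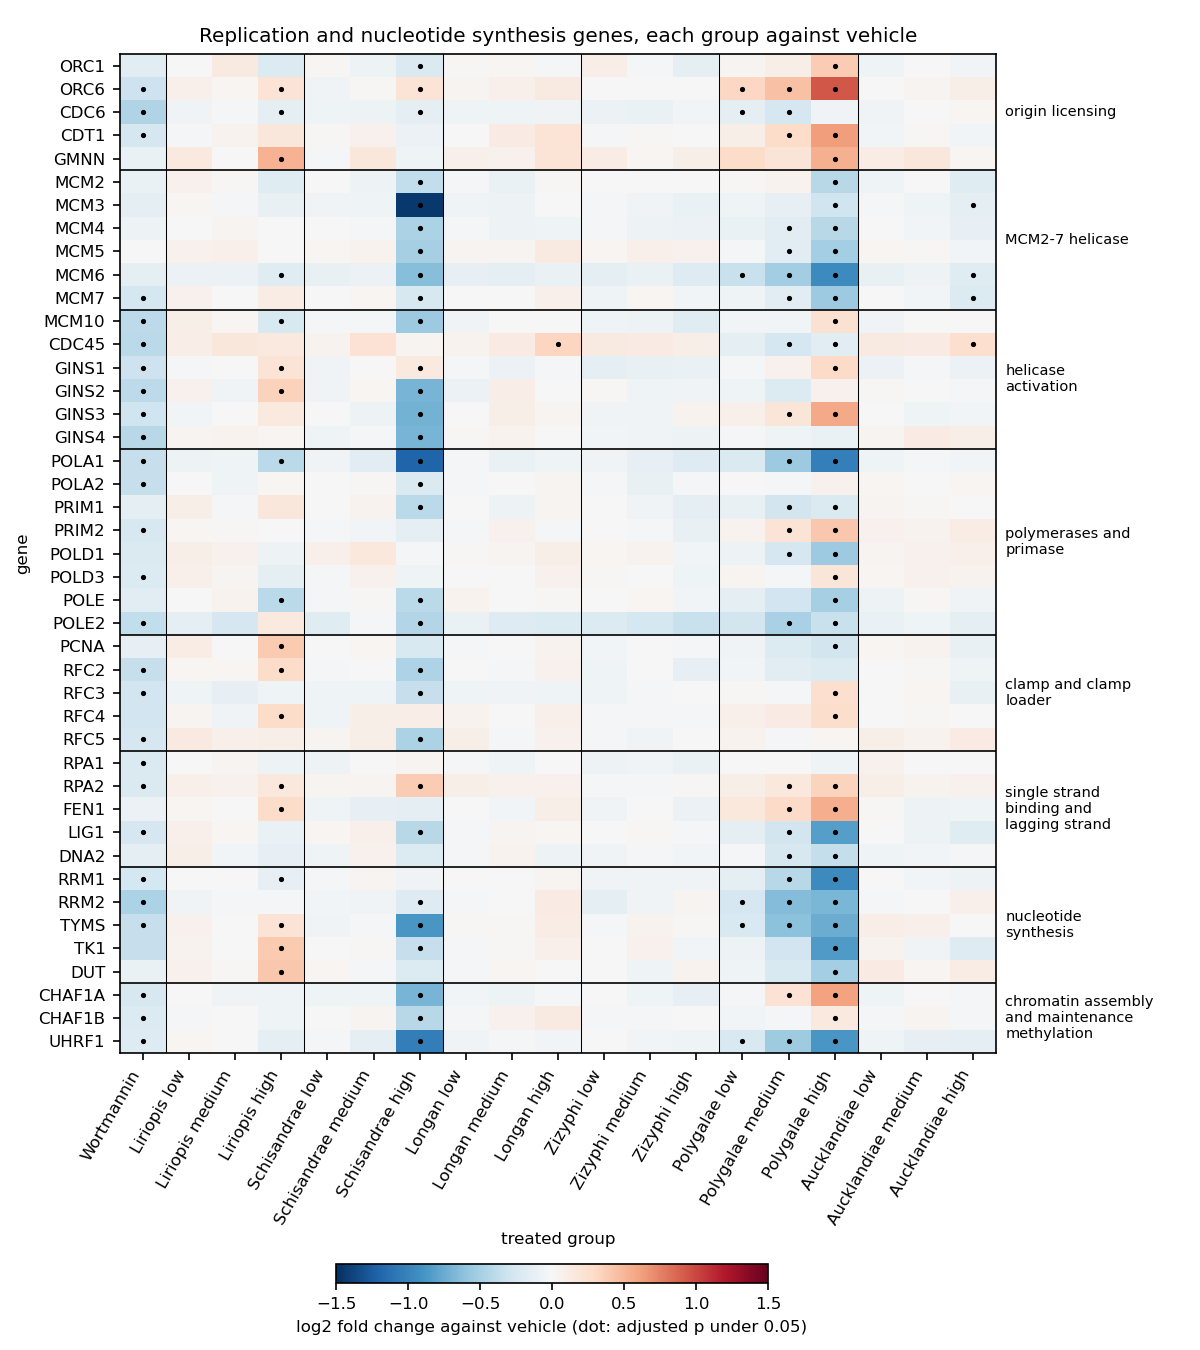
Log2 fold change against vehicle (colour) of the 43 genes (rows, grouped by role) in the 19 treated groups (columns); a dot marks an adjusted p under 0.05. Blue fills most rows of high-dose Schisandrae and wortmannin, and high-dose Polygalae holds both strong blue and strong red, with 21 genes lower and 15 higher.

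With wortmannin the genes were lower than with vehicle, by a small amount and in 1 direction. Treatment and library set cannot be told apart here. Against vehicle, 27 of 43 genes fell and 0 rose, where 6.53% of all tested genes were lower and 5.45% were higher, so that the 62.8% of the set that fell is far above the background. None rose at an unadjusted p under 0.05, and with DESeq2 31 genes were called. The median log2 fold change was -0.25 over the set and 0.01 over all genes, and 42 of 43 estimates were below 0. The largest fall was that of RRM2, the regulated subunit of ribonucleotide reductase, which had 124, 128 and 126 CPM in wortmannin libraries, against 172, 174 and 177 CPM in vehicle libraries. Every wortmannin library lay far below every vehicle library, and the log2 fold change was -0.48 ± 0.03 (SE, edgeR adjusted p 2.5e-14). CDC6, which loads the helicase, had 60.3, 58.7 and 60.5 CPM with wortmannin, against 81.7, 80.6 and 83 CPM with vehicle, again with no overlap (log2 fold change -0.45 ± 0.04, adjusted p 1.2e-10).

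All 6 genes of helicase activation fell with wortmannin, GINS4 by 0.42, CDC45 by 0.40, MCM10 by 0.39, GINS2 by 0.39, GINS1 by 0.31 and GINS3 by 0.30 on the log2 scale. GINS4 had 29.5, 29.5 and 30.1 CPM in wortmannin libraries, against 40.5, 40.5 and 38 CPM in vehicle libraries. Of the 6 ring genes MCM2 to MCM7, 5 had an estimate below 0, 3 had an unadjusted p under 0.05 and their median was -0.11; edgeR called MCM7, and DESeq2 also called MCM3. Whether roles differed from each other was not tested. MCM7 had 156, 157 and 164 CPM in wortmannin libraries, against 191, 189 and 190 CPM in vehicle libraries (log2 fold change -0.26 ± 0.06, adjusted p 0.0011). MCM5 was at 0.01 ± 0.05 (adjusted p 0.97) and MCM2 at -0.10 ± 0.08 (adjusted p 0.50). In the other roles the largest called changes were POLE2, a subunit of polymerase epsilon, at -0.37 ± 0.10, RFC2, a clamp loader subunit, at -0.35 ± 0.10, LIG1, which joins lagging strand fragments, at -0.25 ± 0.07, and CHAF1A, a histone chaperone, at -0.24 ± 0.06. TYMS, thymidylate synthase, fell by 0.35, and PCNA was not called at -0.12 ± 0.11 (adjusted p 0.57).

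High-dose Schisandrae lowered most of the set, and by much more in a few genes. Against the low dose of the same herb 26 of 43 genes fell and 4 rose, where 24.8% and 25% of all tested genes were lower and higher; the falls (60.5% of the set) were above the background and the rises (9.3%) below it. Against vehicle the counts were 27 lower and 3 higher, where the background was 25.6% lower and 25.3% higher. The count of 4 higher genes was 2 without low-dose replicate 1, low-dose replicate 2 or high-dose replicate 3, and the count of 3 against vehicle was 1 without any 1 of the vehicle libraries or without high-dose replicate 2. The median log2 fold change over the set was -0.26 against the low dose and -0.34 against vehicle, with 0.00 over all genes in both.

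All 6 genes of the helicase ring fell with high-dose Schisandrae, but not evenly. MCM3 had 45.9, 49.3 and 45.9 CPM at the high dose, against 122, 121 and 129 CPM at the low dose, and 132, 127 and 126 CPM with vehicle. The 3 high-dose libraries lay far below all the others, and the fold against the low dose was 0.38 (log2 fold change -1.40 ± 0.05, adjusted p 4e-26). The other ring genes moved less, with MCM6 and MCM5 both at -0.53, MCM4 at -0.46, MCM2 at -0.35 and MCM7 at -0.25.

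POLA1 had 26.9, 25.9 and 26.3 CPM at the high dose of Schisandrae, against 58.7, 59 and 57.2 CPM at the low dose, and UHRF1, which recruits the maintenance DNA methyltransferase behind the fork, had 36.2, 36.8 and 35.8 CPM, against 71.2, 73.3 and 76.8 CPM. Neither gene's groups overlapped, and the log2 fold changes were -1.14 ± 0.10 (adjusted p 2e-13) and -1.02 ± 0.06 (adjusted p 1.8e-18). TYMS had 41.9, 43.6 and 42 CPM at the high dose, against 74.1, 80.8 and 70.5 CPM at the low dose (log2 fold change -0.82 ± 0.07, adjusted p 1.5e-13). TYMS shares 39.1% of its exon bases with ENOSF1 on the opposite strand, and the strand setting of the counting is not given, so it is not known whether reads of the 2 genes were told apart; the library kit itself was directional.

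In the GINS complex the 4 subunits split. GINS3 fell by 0.72, GINS4 by 0.65 and GINS2 by 0.65 on the log2 scale at the high dose of Schisandrae against the low dose, whereas GINS1 rose by 0.20 ± 0.06 (adjusted p 0.0048). Among the remaining roles, CHAF1A fell by 0.63, ORC1, the largest subunit of the origin recognition complex, by 0.24, RFC5, a clamp loader subunit, by 0.52 and LIG1 by 0.44. The other rises were RPA2, a subunit of the single strand binding complex, at 0.34 ± 0.06 (adjusted p 6.2e-06), ORC6 at 0.24 ± 0.08 (adjusted p 0.0095) and RPA1 at 0.11 ± 0.04 (adjusted p 0.027). RPA2 had 61.6, 67.6 and 68.1 CPM at the high dose, against 50.1, 53.4 and 52.1 CPM at the low dose, with no overlap. GINS4 shares 21.2% and GINS3 10.9% of their exon bases with genes on the opposite strand that carry a clone name only.

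Both subunits of ribonucleotide reductase were close to their low-dose level with Schisandrae. RRM2 had 154, 153 and 150 CPM at the high dose, against 167, 170 and 171 CPM at the low dose, a fall of 0.15 on the log2 scale with no overlap. RRM1, the large subunit, had 158, 154 and 158 CPM, against 159, 157 and 159 CPM, and was not called (-0.02 ± 0.04, adjusted p 0.77). PCNA was at -0.22 ± 0.11 (adjusted p 0.086) and CDC45 at -0.01 ± 0.07 (adjusted p 0.96). The medium dose of Schisandrae gave 0 calls by edgeR and by DESeq2 against the low dose, with 1 gene at an unadjusted p under 0.05, where 0.332% of all genes were called.

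High-dose Polygalae split the set into genes that fell and genes that rose. Against vehicle 21 of 43 genes fell and 15 rose, where 22.9% and 23.1% of all tested genes were lower and higher; the set had 48.8% lower and 34.9% higher. Against the low dose, 17 fell and 12 rose (39.5% and 27.9% of the set), where the background was 18.3% lower and 17.9% higher. Scaling by library totals alone, which put the median of all genes at 0.18 in place of 0.02 against vehicle and at 0.11 in place of 0.01 against the low dose, gave 15 lower and 18 higher against vehicle, and 14 lower and 17 higher against the low dose. With it the median of the set was -0.01 in place of -0.17 against vehicle, and 0.03 in place of -0.07 against the low dose, so no direction of the set as a whole is given for this herb.

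The genes that fell with high-dose Polygalae included the whole helicase ring and all of nucleotide synthesis, beside genes of other roles. All 6 ring genes and all 5 nucleotide synthesis genes fell, against vehicle and against the low dose. RRM1 had 83.6, 83.8 and 81.7 CPM at the high dose, against 149, 148 and 147 CPM at the low dose, and 159, 168 and 159 CPM with vehicle. The fold against the low dose was 0.561 with no overlap (log2 fold change -0.83 ± 0.04, adjusted p 5.5e-21). RRM2 had 110, 109 and 108 CPM at the high dose, against 147, 146 and 148 CPM at the low dose, with no overlap (-0.43 ± 0.03, adjusted p 8.2e-15).

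TK1, the thymidine salvage kinase, fell by 0.76, TYMS by 0.53 and DUT, which removes dUTP, by 0.44 on the log2 scale at the high dose of Polygalae against the low dose. DUT shares 14.5% of its exon bases with such a gene too. In the ring, MCM6 had 23.5, 21.8 and 24.7 CPM at the high dose, against 35, 37 and 36.4 CPM at the low dose and 46.3, 44.9 and 44.9 CPM with vehicle. The 3 groups did not overlap, and against the low dose the log2 fold change was -0.63 ± 0.06 (adjusted p 4.7e-12). MCM5, MCM7, MCM2, MCM4 and MCM3 were at -0.49, -0.47, -0.44, -0.32 and -0.24.

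Single genes of other roles also fell with high-dose Polygalae. POLA1 had 31.1, 27.3 and 30.7 CPM at the high dose, against 50.5, 54 and 51.1 CPM at the low dose (log2 fold change -0.80 ± 0.10, adjusted p 4.8e-09), and LIG1 had 14.7, 15 and 14.2 CPM, against 22.9, 23.6 and 23.7 CPM (-0.68 ± 0.07, adjusted p 1.2e-10). UHRF1 fell by 0.64 and POLD1, the catalytic subunit of polymerase delta, by 0.47. In none of these genes did the high-dose and low-dose libraries overlap.

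Among the genes that rose were 3 of the 5 origin licensing genes, ORC6, CDT1 and ORC1. ORC6 had 50.8, 48.4 and 53.4 CPM at the high dose of Polygalae, against 33.5, 31.9 and 33.4 CPM at the low dose, and 26.7, 26.7 and 26.5 CPM with vehicle. The 3 groups did not overlap, and the fold was 1.54 against the low dose (log2 fold change 0.63 ± 0.08, adjusted p 5.5e-09) and 1.91 against vehicle. CDT1, which brings the helicase to origins, had 44.2, 44.1 and 42.8 CPM at the high dose, against 30, 32.6 and 28 CPM at the low dose (0.53 ± 0.07, adjusted p 3.9e-08).

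Of the 5 licensing genes, ORC1 rose by 0.34 ± 0.09 against the low dose, while GMNN, the inhibitor of CDT1, was at 0.25 ± 0.13 (adjusted p 0.13) and CDC6 at 0.09 ± 0.04 (adjusted p 0.082). Against vehicle GMNN was called, at 0.53 ± 0.13 (adjusted p 0.00074), and CDC6 was not. CHAF1A had 72.3, 66.2 and 72.3 CPM at the high dose, against 48.3, 41.9 and 46.7 CPM at the low dose (0.62 ± 0.06, adjusted p 3.3e-12). GINS3 rose by 0.48, FEN1, the flap endonuclease, by 0.38, PRIM2, the primase accessory subunit, by 0.36 and GINS1 by 0.31, and RPA2 was at 0.23 ± 0.06 (adjusted p 0.0019). PCNA was not called against the low dose (-0.23 ± 0.11, adjusted p 0.091) and was called against vehicle (-0.28 ± 0.11, adjusted p 0.030).

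With Polygalae the lower doses also gave calls. At the medium dose 16 genes fell and 7 rose against vehicle, where 14.9% and 15.2% of all genes were lower and higher; with library totals alone the counts were 8 and 8, and without vehicle replicate 3 the 7 became 4. Against the low dose the medium dose lowered MCM6, POLA1, RRM1, RRM2, TYMS and UHRF1 and raised CHAF1A, where 5.7% and 5.23% of all genes were lower and higher. Without low-dose replicate 2 the 6 lower genes became 4 and the 1 higher gene 0. The 6 became 13, and the 1 higher gene 2, without Liriopis high-dose replicate 1, whose spread enters the shared fit. RRM2 had 111, 110 and 112 CPM at the medium dose, against 110, 109 and 108 CPM at the high dose.

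At the low dose of Polygalae, CDC6, MCM6, RRM2, TYMS and UHRF1 were lower and ORC6 higher than with vehicle, where 3.46% and 3.01% of all genes were lower and higher. These counts of 5 and 1 rest on few libraries: leaving out any 1 vehicle library, or low-dose replicate 2 or 3, gave 2 or 3 lower genes, and leaving out Liriopis high-dose replicate 1 gave 8 lower and 3 higher. Over the low, medium and high doses the group means fell at each step for 20 of 43 genes and rose at each step for 11. With Schisandrae the means fell at each step for 10 and rose for 5. With Zizyphi, where 1 gene was called, they fell at each step for 13 and rose for 5. The order of the dose means was not counted over all genes, so these counts have no background.

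**Figure D3:**
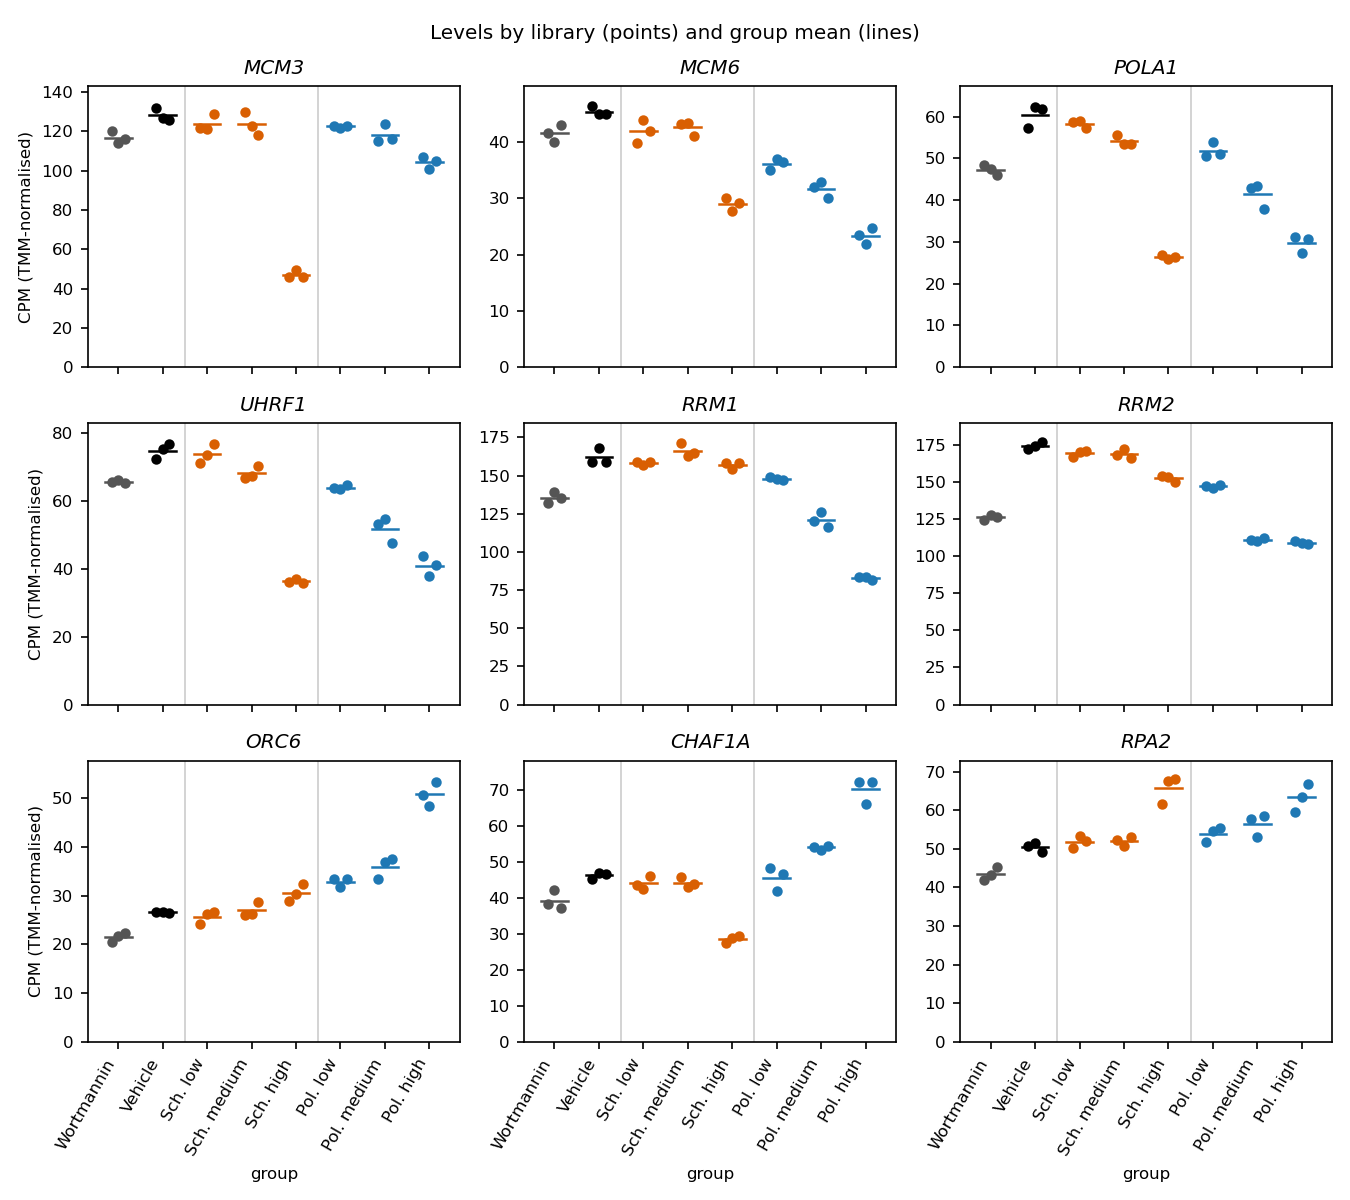
CPM of 9 genes (y axis) in each library (points) with the mean of each group of 3 (lines), for wortmannin, vehicle and the 3 doses of Schisandrae (orange) and Polygalae (blue). MCM3 lies below 50 CPM at the high dose of Schisandrae and above 100 CPM elsewhere, RRM1 is lower at the medium and high doses of Polygalae, and CHAF1A is lower with high-dose Schisandrae and higher with high-dose Polygalae.

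The 2 dose effects share no library, so that they were compared directly, at 500 against 20 µg/mL of Schisandrae and 250 against 10 µg/mL of Polygalae. Of the 26 genes that fell with Schisandrae and the 17 that fell with Polygalae, 13 were shared, which is 50% of the first list and 76.5% of the second. They were the 6 ring genes, POLA1, POLE, LIG1, RRM2, TK1, TYMS and UHRF1. GINS1, ORC6 and RPA2 rose with both, which is 75% of the 4 and 25% of the 12 genes that rose. In 6 genes the calls were opposite, all lower with Schisandrae and higher with Polygalae: ORC1, MCM10, GINS3, RFC3, CHAF1A and CHAF1B. The same overlaps were not counted over all genes. Whether these joint counts exceed what lists of such sizes share was therefore not tested.

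The difference of the dose effects was also tested in the same fit, as Schisandrae minus Polygalae. It was called below 0 for 20 genes and above 0 for 5, where 20.3% and 20.7% of all genes were called lower and higher; with library totals alone the counts were 25 and 2. CHAF1A differed most (-1.25 ± 0.08, adjusted p 9.1e-17), followed by GINS3 (-1.20 ± 0.11, adjusted p 6.2e-13) and MCM3 (-1.16 ± 0.07, adjusted p 9.3e-18). RRM1 differed most in the other direction (0.82 ± 0.06, adjusted p 1.5e-15), with RRM2, POLD1, MCM7 and RPA1 at 0.28, 0.37, 0.22 and 0.20. Of the 13 genes lower with both herbs, the sizes differed for 6. The difference was also called in all 6 genes with opposite calls. Those genes were picked from the same fit, so this is no separate support.

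**Figure D4:**
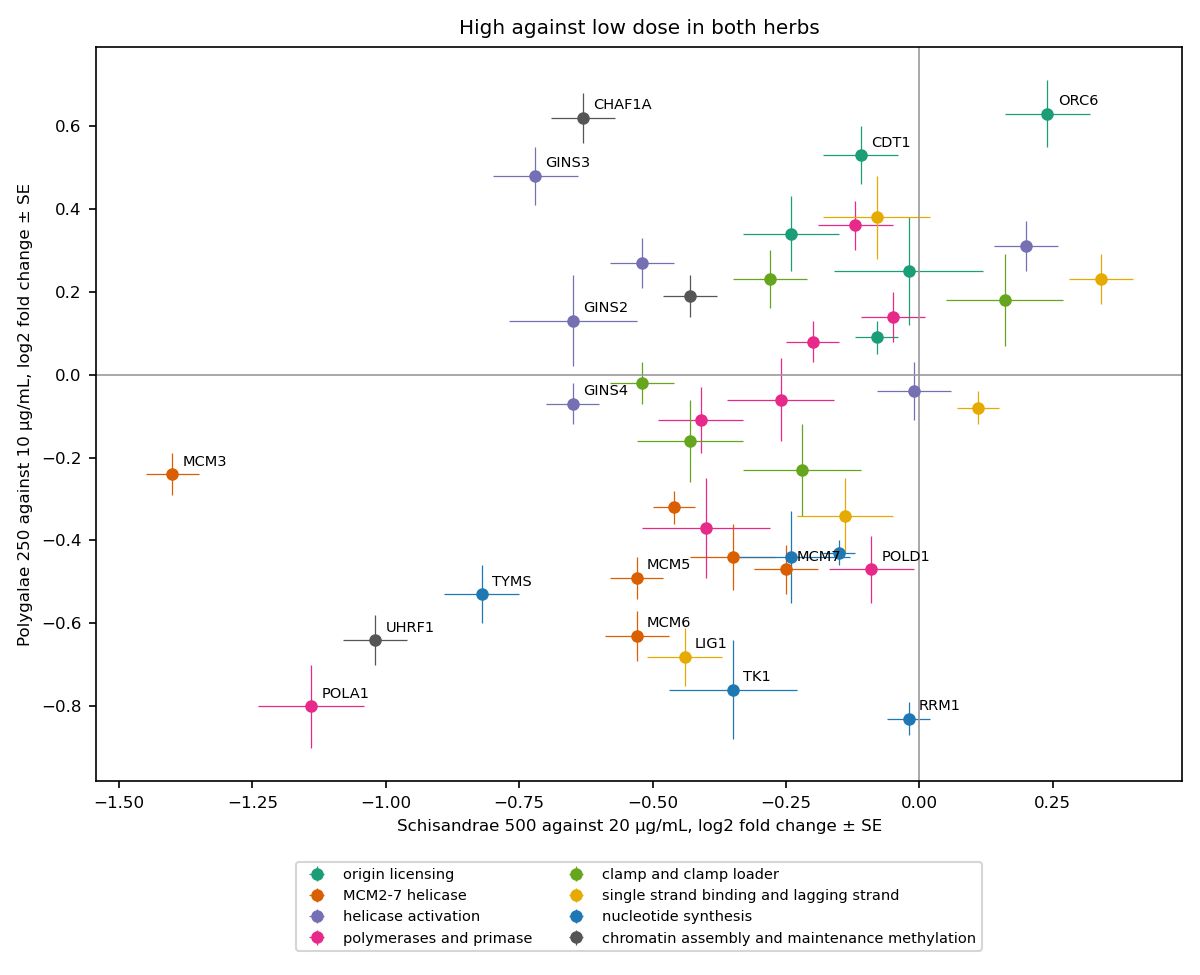
Log2 fold change ± SE of each of the 43 genes at the high against the low dose of Schisandrae (x axis) and of Polygalae (y axis), coloured by role. Ring genes and nucleotide synthesis genes lie in the lower left or near the lower axis, CHAF1A and GINS3 in the upper left at -0.63 and -0.72 on the x axis, and ORC6 in the upper right.

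Set against Aucklandiae, a herb with a smaller dose effect, Schisandrae minus Aucklandiae was called below 0 for 21 genes and above 0 for 2, where 16.8% and 15.8% of all genes were lower and higher. The 2 were RPA1 and RPA2, and the count was 1 without low-dose Schisandrae replicate 1 or 2, high-dose Schisandrae replicate 3, high-dose Aucklandiae replicate 1 or 2, or low-dose Aucklandiae replicate 3. MCM3 (-1.28 ± 0.07) and POLA1 (-1.17 ± 0.14) differed most. Polygalae minus Aucklandiae, within 1 library set, was called below 0 for 15 genes and above 0 for 10, where 12.4% and 10.4% of all genes were lower and higher, and with library totals alone for 9 and 12. All 5 nucleotide synthesis genes were among the 15, led by RRM1 (-0.76 ± 0.06, adjusted p 5.1e-14), and CHAF1A (0.59 ± 0.08) and ORC6 (0.55 ± 0.11) led the 10.

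By promoter letters, 9 of 11 promoters of the genes lower with both herbs held an E2F-type match, 2 of 6 of the genes with opposite calls, and 4 of 13 of the genes higher with high-dose Polygalae than with vehicle, against 11 of 18 of the genes lower with it. Among genes lower with 1 herb and not called with the other, it was 3 of 6 for Schisandrae and 0 of 3 for Polygalae. The genes higher with high-dose Polygalae had a median level of 28.3 CPM in vehicle cells and a median exon length of 4068 bases, and the 21 lower genes 60.5 CPM and 4386 bases. Only exact matches to the listed motifs were counted, so a promoter without a match may still hold an E2F site. These are descriptions of small groups with no test.

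Genes that act in mitosis, a list of 30 that included CDC20, TOP2A and KIF2C, did not follow the replication genes in the same way in each treatment. With wortmannin 26 of 30 fell and 0 rose, with a median of -0.31, close to the replication set. With high-dose Schisandrae against the low dose 25 rose and 0 fell, with a median of 0.35, and KIF2C, a microtubule depolymerase, rose by 0.76 ± 0.04 and CCNA2, cyclin A2, by 0.81 ± 0.05. With high-dose Polygalae against the low dose 27 fell and 0 rose, with a median of -0.40, and KIF20A, a kinesin of cell division, fell by 1.47 and TOP2A, topoisomerase II alpha, by 0.92. Of all genes, 6.53% were lower with wortmannin. Against the low dose, 25% were higher with high-dose Schisandrae and 18.3% were lower with high-dose Polygalae. The level of the mitosis list thus moved with the replication genes in wortmannin and against most of them in Schisandrae, and its part in their change was not tested.

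**Figure D5:**
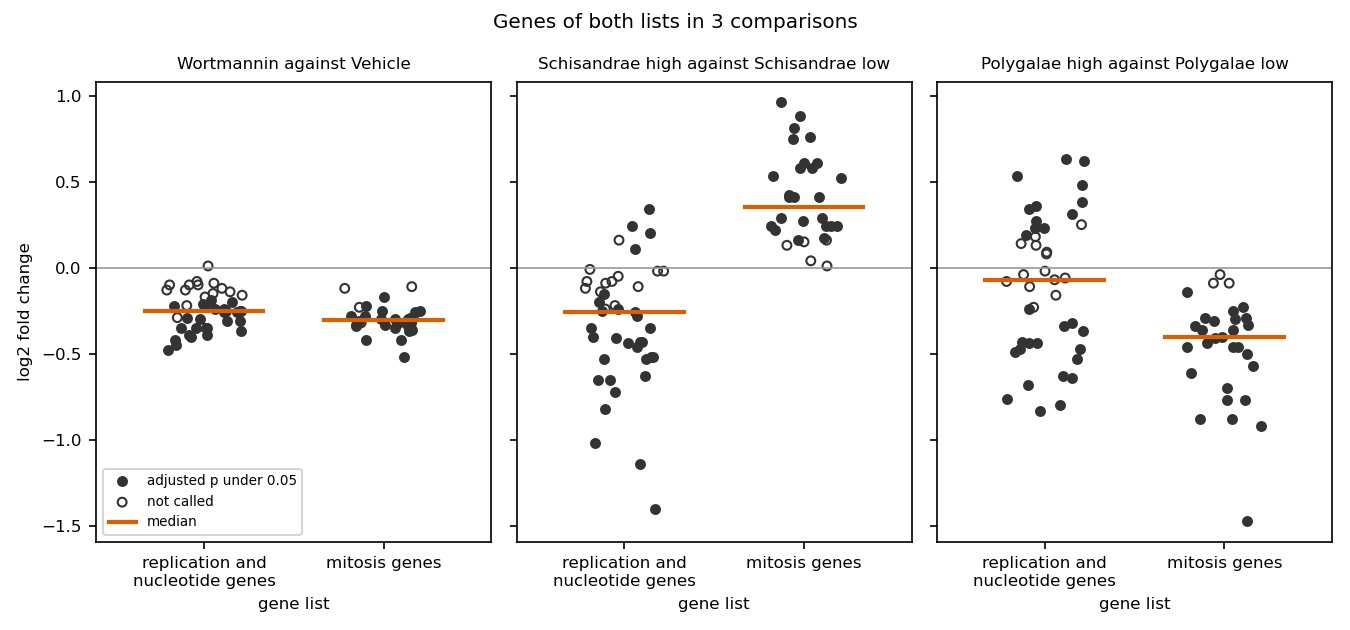
Log2 fold change (y axis) of the 43 replication and nucleotide synthesis genes and the 30 mitosis genes in 3 comparisons; filled points passed an adjusted p of 0.05 and the bar is the median. In Schisandrae the medians of the 2 lists lie on opposite sides of 0, at -0.26 and 0.35, with some replication genes above 0. In Polygalae the replication genes spread over both sides.

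Other genes of the same pathways moved in both directions with the herbs. Of 31 further replication genes, 15 fell and 0 rose with wortmannin, 9 fell and 9 rose with high-dose Schisandrae, and 7 fell and 7 rose with high-dose Polygalae, the last 2 against the low dose. The background of all genes was 6.53% lower and 5.45% higher with wortmannin, 24.8% and 25% with Schisandrae, and 18.3% and 17.9% with Polygalae, so that the herb counts of this list are near the background. CDC7, the kinase that fires origins, fell by 0.73 with high-dose Schisandrae, while DONSON, a fork protein, rose by 0.76 ± 0.05 with Schisandrae and by 0.31 ± 0.05 with Polygalae. DNMT1, the maintenance methyltransferase, fell by 0.69 with Polygalae. Of 17 further nucleotide and folate genes, 5 fell and 1 rose with wortmannin, 5 fell and 5 rose with Schisandrae, and 6 fell and 2 rose with Polygalae, where the Schisandrae counts are again near the background. MTHFD2, a mitochondrial folate enzyme, rose by 1.10 ± 0.05 with Schisandrae, and MTHFD1 fell by 0.95 and CAD, which starts pyrimidine synthesis, by 1.02 with Polygalae.

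Of 12 E2F and DREAM complex genes, 4 fell and 0 rose with wortmannin, where 6.53% of all genes were lower and 5.45% higher. Against the low dose, 7 fell and 1 rose with high-dose Schisandrae, and 1 fell and 5 rose with high-dose Polygalae. Of all genes, 24.8% were lower and 25% higher with Schisandrae, and 18.3% and 17.9% with Polygalae. E2F2, an activator, fell by 1.37 and E2F7, a repressor, rose by 1.00 ± 0.14 with Schisandrae. E2F3 rose by 0.50 ± 0.07 and E2F7 by 0.47 ± 0.14 with Polygalae, and MYBL2 fell by 0.84 with wortmannin, 0.79 with Schisandrae and 0.27 with Polygalae. Of 10 tested genes of the G1 cyclins and cyclin-dependent kinase inhibitors, 0 fell and 2 rose with wortmannin, 3 fell and 4 rose with Schisandrae, and 2 fell and 2 rose with Polygalae, and with so few genes these herb counts are close to the same background. CDKN1A, the p21 inhibitor of cyclin-dependent kinases, rose by 1.14 ± 0.08 with high-dose Polygalae and, against vehicle, by 0.35 ± 0.08 with wortmannin. Over these genes the log2 fold changes against the low dose ran from -0.3 to 1.14 with high-dose Polygalae. With high-dose Schisandrae they ran from -1.04 to 1.11.

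High-dose Liriopis calls rested on 1 library. Against vehicle 12 genes were higher and 6 lower, where 18.7% and 15.2% of all genes were called, and against the low dose 4 and 5, where 11.8% and 4.25% were. PCNA had 218, 110 and 119 CPM at the high dose, against 124, 118 and 128 CPM at the low dose, and POLA1 had 28.9, 55.5 and 53.1 CPM, against 55, 59.4 and 56.7 CPM. In both genes replicate 1 alone stood apart, and the other 2 libraries lay at or just below the low-dose values. Without replicate 1 every one of these counts was 0. Without high-dose replicate 2 or 3 the counts against the low dose were 15 or 13 higher and 11 or 15 lower, without low-dose replicate 2 or 3 they were 0 or 1 higher and 1 lower, and with library totals alone they were 1 and 8. Against vehicle, the 12 became 5 or 4 without vehicle replicate 2 or 3, and the 6 became 12 without high-dose replicate 3.

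The other 21 comparisons gave 8 calls among 903 tests of these genes by edgeR, with 54 at an unadjusted p under 0.05 and 14 calls by DESeq2. Without Liriopis high-dose replicate 1 the 8 became 30, and without high-dose Aucklandiae replicate 1 they became 5. High-dose Aucklandiae lowered MCM3, MCM6 and MCM7 by 0.15, 0.18 and 0.20 on the log2 scale and raised CDC45 by 0.25 ± 0.07 against vehicle, where 13.2% of all genes were called. Against its low dose it lowered MCM7 by 0.21 and raised RRM2 by 0.11 ± 0.03, where 10.6% of all genes were called. In both Aucklandiae comparisons the set was called less often than all genes. High-dose Longan raised CDC45 by 0.32 ± 0.07 against vehicle (0.843% of all genes called), and high-dose Zizyphi raised RRM2 by 0.17 ± 0.03 against its low dose (0.674%).

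In the rest edgeR called 0 of the 43 genes, while DESeq2 called RRM2 for low-dose Zizyphi against vehicle and CDC45 and RRM2 for high-dose against low-dose Longan. At an unadjusted edgeR p under 0.05 there were 5 and 4 genes in these comparisons and 0 to 6 in the others. Against vehicle the background was 0.0112% and 0.00562% of all genes at the medium and low doses of Liriopis, 1.02% and 0% for Schisandrae, 0.0281% and 0.00562% for Longan, 0.0393% and 0% for Zizyphi, and 0.455% and 0.00562% for Aucklandiae, and 0.607% at the high dose of Zizyphi. Against the low dose of the same herb it was 0% for the medium dose of Liriopis and of Longan, 0.0112% for that of Zizyphi, 0.0169% for that of Aucklandiae and 0.247% for the high dose of Longan.

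Across all 20 groups, RRM2 had its lowest means with high-dose and medium-dose Polygalae (109 ± 0.856 and 111 ± 1.18 CPM, SD, n = 3), whose libraries lay side by side, then with wortmannin (126 ± 2.15), low-dose Polygalae (147 ± 1.13) and high-dose Schisandrae (153 ± 2.20). The other 15 groups ran from 159 ± 2.37 with low-dose Zizyphi to 189 ± 3.82 with high-dose Longan, with vehicle at 175 ± 2.43. TYMS was lowest with high-dose Schisandrae (42.5 ± 0.953), high-dose Polygalae (46.2 ± 0.175), medium-dose Polygalae (50.5 ± 0.780), wortmannin (60.9 ± 3.99) and low-dose Polygalae (66.5 ± 4.63). The remaining groups lay from 75.1 ± 5.25 to 89.6 ± 16.2, and their neighbours did not differ beyond their spread.

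PCNA and MCM2 varied less. PCNA had 93.9 ± 2.29 CPM with high-dose Polygalae, 97 ± 3.40 with high-dose Schisandrae, 98.9 ± 1.84 with medium-dose Polygalae and 105 ± 0.234 with wortmannin, and the other groups ran from 106 ± 3.81 to 149 ± 59.8, the last being high-dose Liriopis with its divergent library. MCM2 had 29 ± 1.70 CPM with high-dose Polygalae and 30.1 ± 1.93 with high-dose Schisandrae, which did not differ beyond their spread. All other groups lay between 34.3 and 40.8 CPM, and vehicle was at 38.9 ± 1.53.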

How the data were processed

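mRNA sequencing of SW1783 cells, from a directional library kit per the labels' protocols, was analysed from the table of gene-level expected counts that the authors deposited, 1 column for each of 60 libraries. Per the submitters' processing notes, the tools were RSEM 1.3.3, STAR 2.7.3a, Trim Galore 0.6.5 and FastQC 0.11.9, with GRCh38 (hg38) as genome. Which annotation release was used, and whether counting was stranded, is not given in the sources used here. Expected counts, of which 11.02% were not whole, were rounded, and 0 columns were left unused. Identifiers were matched to current symbols (56558 of 60675), and GENCODE 29 gave exon lengths and overlaps.

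All comparisons came from a single edgeR 4.0.16 quasi-likelihood model run in R 4.3.3, which held all 60 libraries with a mean per group, TMM normalisation and the expression filter at a minimum count of 10, with 40 residual degrees of freedom. A call needed an adjusted p under 0.05 (Benjamini-Hochberg, across the 17792 tested genes, separately for each comparison). There were 34 comparisons: 19 with vehicle, 12 with the low dose of a herb and 3 differences of dose effects. Library totals ran from 9.34 M to 35.35 M, which limits the precision of the genes with low counts. CPM are TMM-normalised, log2 fold changes are those of the fit, each SE is the fold change divided by the square root of its F statistic, and correlations between libraries used log2 CPM with a prior count of 2. The pipeline was run on simulated counts with the same dispersion for every gene, in some of the groups and with no divergent library. That run therefore does not cover the full fit, which holds Liriopis high-dose replicate 1. Alternatives were RLE size factors, library totals alone, no low-count filter, a replicate block, only the groups compared, DESeq2 1.42.0 and each library left out in turn.

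The genes and lists were chosen with earlier results of these data known. In each comparison described at length, the genes named were, per role, the largest called change with no overlap between libraries, the 5 largest each way and those against the majority; for other lists, members among the 4 smallest p. PCNA, MCM2, RRM2 and TYMS are given whatever their values; remaining names, such as single members of a role or a count, were added after values were seen.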

Additional observations from a re-analysis of the deposited data

Results flagged for a closer look

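Dose effects that differed between herbs, by a test of the difference itself, are listed here. For Schisandrae minus Polygalae, 20 genes were called with a lower and 5 with a higher dose effect. The counts were 21 and 2 for Schisandrae minus Aucklandiae, and 15 and 10 for Polygalae minus Aucklandiae. Of all genes, 20.3%, 16.8% and 12.4% were called lower and 20.7%, 15.8% and 10.4% higher, in the same order. The 5 and 2 higher genes, 11.6% and 4.7% of the set, lay below that background. In 6 genes the dose effects of Schisandrae and Polygalae were called in opposite directions. Their differences, Schisandrae minus Polygalae on the log2 scale, were -1.25 for CHAF1A, -1.20 for GINS3, -0.79 for MCM10, -0.62 for CHAF1B, -0.58 for ORC1 and -0.51 for RFC3. These 6 genes were picked by their calls in the same fit, so the differences are no separate support. The doses of Polygalae differ from those of the other herbs, so dose and herb cannot be told apart in its differences. Each dose effect was taken within 1 library set, so a constant difference between sets cancels on the log2 scale. Schisandrae is in another set than Polygalae and Aucklandiae. A dose effect that varies with the set cannot be told apart from herb there.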

How the results depend on the processing

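For the genes that the naming rule picked with wortmannin and with high-dose Schisandrae and Polygalae, against vehicle and the low dose, the alternatives gave 1073 values on the same side of the threshold, 49 no longer past it, 9 newly past it and 0 reversed; other genes named in the text were not run one by one. Without the low-count filter the counts were 17 lower with wortmannin, 7 higher and 3 lower for high-dose Liriopis against vehicle, 1 higher for high-dose Schisandrae against vehicle and 2 against its low dose, 4 higher for medium-dose and 2 lower for low-dose Polygalae against vehicle, 3 lower for high-dose against low-dose Liriopis, 1 higher for Schisandrae minus Aucklandiae, 5 higher for Polygalae minus Aucklandiae and 0 in the other 21 comparisons; more genes are then adjusted for. With library totals alone the counts were 8 lower for medium-dose and 2 lower for low-dose Polygalae against vehicle, 1 higher and 8 lower for high-dose against low-dose Liriopis, 2 higher for Schisandrae minus Polygalae, 1 higher for Schisandrae minus Aucklandiae and 9 lower for Polygalae minus Aucklandiae. With it the medians were -0.01, -0.07 and 0.02 for high-, medium- and low-dose Polygalae against vehicle, 0.03 and -0.06 for high and medium against low, -0.33 for Schisandrae minus Polygalae and 0.03 for Polygalae minus Aucklandiae. With only the groups compared in the fit, both high-dose Liriopis comparisons gave 0 higher and 0 lower, and low-dose Polygalae 2 higher. DESeq2 gave 8 higher and 8 lower for high-dose against low-dose Liriopis and 14 calls in the other 21 comparisons. Beyond these constructions the cause was not tested.

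Leaving out 1 library at a time gave 0 to 0 higher and 18 to 34 lower with wortmannin. Against vehicle it gave 0 to 17 higher and 0 to 12 lower for high-dose Liriopis, 1 to 3 and 26 to 31 for high-dose Schisandrae, and 13 to 15 and 18 to 22, 4 to 7 and 13 to 23, and 1 to 3 and 2 to 8 for high-, medium- and low-dose Polygalae. Against the low dose it gave 0 to 15 and 0 to 15 for Liriopis, 2 to 5 and 24 to 29 for Schisandrae, 11 to 17 and 16 to 19 for high-dose and 0 to 2 and 4 to 13 for medium-dose Polygalae. The differences gave 4 to 6 and 17 to 23, 1 to 3 and 16 to 23, and 8 to 13 and 12 to 16, and the other 21 comparisons 5 to 30. Replicate numbers do not pair the libraries by any label, and in no comparison did every same-numbered pair correlate above 0.1. The replicate block gave 28 lower with wortmannin, 27 lower for high-dose against low-dose Schisandrae, 6 higher for Schisandrae minus Polygalae, 11 higher for Polygalae minus Aucklandiae and 9 calls in the other 21 comparisons.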
